A study of Mus musculus with 24 samples.

Results

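Late treatment with R07 was compared with 0 h in mouse Lys-GFP-ER-HoxA9 cells, using the 3 libraries taken after 36, 72 and 120 h of R07 as 1 group and the 2 libraries at 0 h as the other, 5 of the 24 libraries of the series. The cells are myeloid progenitors of strain C57Bl/6 that carry a lysozyme-GFP reporter and HoxA9 fused to an estrogen receptor domain. All 5 libraries share this genotype, and all came from cells grown in medium with stem cell factor and 0.5 micromolar beta-estradiol. The 0 h libraries are the start of a course in which estradiol was taken away, and the withdrawal libraries tested against late R07 stand at 36, 72 and 120 h (2 each). R07 is known here only by its code, and its dose is not given in the sources used here. The treatment text of the labels is the same for every library and speaks only of culture out of estradiol, so it does not tell whether estradiol was present with R07. No library of untreated cells kept for the same hours is among the 24, so the effect of R07 and the effect of time in culture cannot be told apart in this comparison. The single R07 library at 12 h was left out of the test and is shown beside it. All 45319 gene rows were considered, and 13595 passed the filter on low counts and were tested.

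As background, HoxA9 is a homeobox transcription factor that keeps myeloid progenitors dividing and immature. In an estrogen receptor fusion its activity depends on the ligand, and removal of estradiol lets the cells mature towards neutrophils and monocytes. Maturing myeloid cells switch off progenitor receptors and ribosome production, and switch on integrins, pattern receptors, granule proteins and the oxidase that makes bactericidal oxygen species.

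The 5 libraries held 37.0 to 47.7 M counts in genes, and the R07 library at 12 h held 49.3 M. Levels are in CPM, that is counts scaled to a common library size with TMM factors. Changes are log2 values ± SE from edgeR's quasi-likelihood test, whose p-values were adjusted by Benjamini-Hochberg across the 13595 genes; "called" means an adjusted p below 0.05. The labels do not say that the libraries came from separate cultures, so the p-values measure only the spread between these libraries, which may be technical. In bulk RNA, a change in the share of cells that make a transcript and a change in the amount per cell cannot be told apart. Mitochondrially encoded genes took 0.822 and 0.889% of gene counts at 0 h, 2.04% at 12 h and 1.37, 1.21 and 1.02% at 36, 72 and 120 h of R07; the part of this in the results was not tested. Progenitor markers were abundant in all 5 libraries: the summed level of Kit, Cd34, Myb, Mpo, Ctsg, Prtn3 and Elane was 10307 to 10362 CPM at 0 h and 11359 to 16361 CPM in late R07. Mpo alone made up 36.5 to 58.3% of this sum, and none of the 7 markers was called. Mpo, Ctsg, Prtn3 and Elane are also primary granule genes. Lyz2 (lysozyme M) had no count in any of the 5, and it was also near 0 after 120 h of withdrawal, at 0.646 and 0.402 CPM.

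In late R07, 19 of 31 tested myeloid surface receptors, 18 of 26 interferon-stimulated genes and 7 of 20 lysosomal genes were called higher than at 0 h. Of the genes for ribosome biogenesis 15 of 30 were called lower, as were 8 of 17 for purine synthesis, 6 of 11 for chaperones and 9 of 34 for DNA replication. Of the genes tested, 2256 (16.6%) were called, 1368 (10.1%) higher and 888 (6.53%) lower. The higher calls were larger in size: 1050 (7.72%) were called at least 2-fold higher and 464 at least 4-fold higher, against 197 (1.45%) at least 2-fold lower and 33 at least 4-fold lower. The median log2 change over all genes tested was 0.04. In all 2256 called genes the 3 R07 libraries lay on one side of both 0 h libraries, as 28.9% of all tested genes did upwards and 24.3% downwards. The calls rest on few libraries. With edgeR no gene was called without 0 h library A (2608 genes at an unadjusted p under 0.05) or without library B (2204 genes), against 4734 at that level with all 5. Leaving out the R07 library at 72 h left 63 genes called, all 63 of them among the 2256, while leaving out the one at 36 h gave 5853 calls and the one at 120 h 2919. Every called gene kept its direction in each of these fits in which it was tested.

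The 12 largest rises were ranked among genes with a mean of 3 or more on the log2 CPM scale and included a chemokine, an inflammasome sensor and receptors of phagocytes. Tgm2 (ENSMUSG00000037820.12, chr2:158116402-158146436), transglutaminase 2, a protein-crosslinking enzyme, was at 1.14 and 1.49 CPM in the 0 h libraries and at 70.1, 197 and 206 CPM after 36, 72 and 120 h of R07. It rose 117-fold (log2 6.88 ± 0.61, adjusted p = 0.00445), while the 12 h library, at 1.64 CPM, stayed next to 0 h. Thbs1 (ENSMUSG00000040152.8, chr2:118111876-118127133), the matrix glycoprotein thrombospondin 1, was already present at 154 and 151 CPM and reached 2336, 4832 and 3363 CPM, a 22.6-fold rise (log2 4.50 ± 0.36, adjusted p = 0.00388). Thbs1 at 12 h, 98.7 CPM, lay under both 0 h values. Ccl3, a chemokine that draws monocytes and neutrophils, went from 2.18 and 2.93 CPM to 61.3, 111 and 52.7 CPM, 28.8-fold (log2 4.85 ± 0.42, adjusted p = 0.00410). Nlrp3, the sensor of an inflammasome, went from 2.13 and 1.78 CPM to 29.9, 38.9 and 31.7 CPM (log2 4.08 ± 0.24, adjusted p = 0.00332). The 3 late libraries lay close together for Nlrp3, while for Ccl3 they ranged from 52.7 to 111 CPM. For Ccl3 and Nlrp3 the 12 h library, at 6.43 and 4.09 CPM, stood between the late libraries and 0 h.

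Mmp12, Gas7 and Mgam differed more between the R07 times. Mmp12, macrophage elastase, was at 1.82 and 1.59 CPM at 0 h and 6.92, 100 and 128 CPM in late R07 (log2 5.50 ± 1.23, adjusted p = 0.0300), so that the library at 36 h lay nearer to 0 h than to the later ones. Gas7, a growth arrest-specific cytoskeletal protein, had the opposite order, with 4.23 and 3.37 CPM at 0 h and 119, 57.3 and 13.6 CPM in late R07 (log2 4.03 ± 0.87, adjusted p = 0.0276). Mgam, maltase-glucoamylase, was at 1.72 and 2.21 CPM and then at 39.8, 53.2 and 5.46 CPM, with a low value at 120 h (log2 4.03 ± 0.92, adjusted p = 0.0320). Adgre1 (F4/80, a macrophage surface receptor), Lcp2 (the adaptor SLP-76), Cd300lb (an activating receptor), Pcp4l1 and Itgam complete the 12, with log2 changes from 3.89 to 4.77 and adjusted p from 0.00332 to 0.00976. Of the 12, Tgm2, Ccl3, Thbs1, Nlrp3, Pcp4l1, Lcp2 and Cd300lb were still called without the R07 library at 72 h.

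The 12 largest falls, ranked at the same minimum level, were smaller, from 2.92-fold to 8.37-fold. Myh7b (ENSMUSG00000074652.3, chr2:155611212-155634307), a myosin heavy chain, was at 43.9 and 38.04 CPM at 0 h and at 6.31, 3.63 and 5.00 CPM in late R07, and fell 8.37-fold (log2 -3.06 ± 0.26, adjusted p = 0.00388). The 12 h library, at 21.6 CPM, lay between the groups. Hsph1, a large chaperone of the heat shock family, was at 176 and 198 CPM and then at 59.05, 45.9 and 61.8 CPM (log2 -1.77 ± 0.17, adjusted p = 0.00569). Hmga2, a chromatin-architecture protein of fetal and transformed cells, was at 292 and 314 CPM and then at 104, 99.5 and 91.97 CPM (log2 -1.65 ± 0.13, adjusted p = 0.00388). In both genes the 3 late libraries lay close together and the 12 h library, at 114 and 199.7 CPM, lay between the groups. Nucleic acid-binding regulators were in the group. Hnrnpd went from 575 and 684 CPM to 227, 220.1 and 196 CPM and Fubp1, an activator of Myc transcription, from 377 and 395 CPM to 141, 114 and 141 CPM. Slc39a10 (a zinc importer), Fabp5 (a fatty acid carrier), Ppa1 (a pyrophosphatase), Srd5a1 (a steroid reductase), Etv5 (an ETS factor of receptor kinase signalling), Mcpt8 (a basophil protease) and Kyat3 (a kynurenine aminotransferase) fell with log2 changes from -1.93 to -1.55. Of these 12, Myh7b, Hsph1, Hmga2 and Fubp1 were still called without the R07 library at 72 h.

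**Figure D1:**
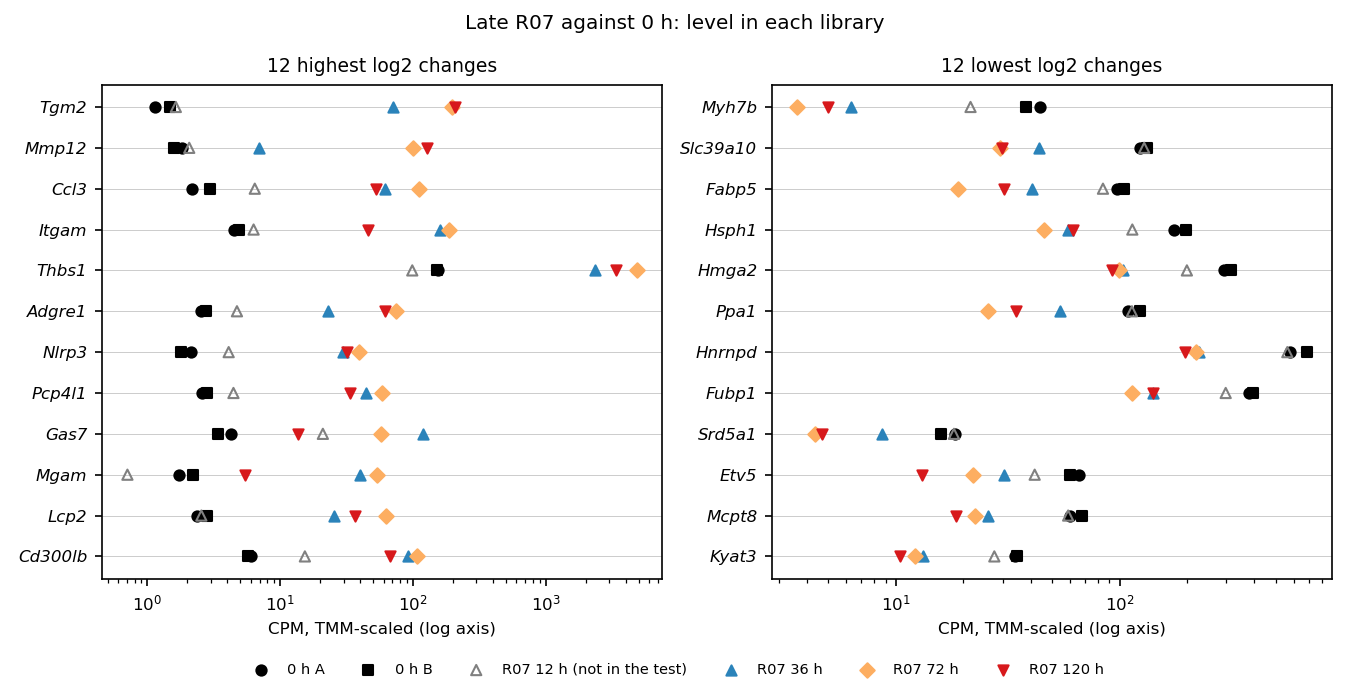
Levels (CPM, log axis) of the called genes with the 12 highest and the 12 lowest log2 changes, ranked at a minimum mean of 3 on the log2 CPM scale, 1 point per library; filled black points are the 0 h libraries, coloured points the late R07 libraries and the open triangle R07 at 12 h, which was not tested. In each gene the coloured points lie on one side of the black ones, by up to 117-fold for Tgm2 and 8.37-fold for Myh7b in the fit.

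Myeloid surface receptors were called higher in 19 of 31 tested members (of 34 listed) and lower in none, with a median log2 change of 1.504, against 10.1% and 6.53% of all genes tested. Itgam, the CD11b chain of the complement receptor integrin, was at 4.46 and 4.88 CPM at 0 h, 6.30 CPM at 12 h and 159.7, 185 and 46.2 CPM in late R07. It rose 27.3-fold (log2 4.77 ± 0.63, adjusted p = 0.00976), and the 120 h library was the lowest of the 3 while still above both 0 h libraries. Its partner Itgb2, the CD18 chain, was at 29.3 and 26.6 CPM and then at 128, 160.3 and 117 CPM (log2 2.25 ± 0.19, adjusted p = 0.00388). The other CD18 partners also rose: Itgax (CD11c) went from 3.52 and 2.79 CPM to 26.9, 33.2 and 23.1 CPM and Itgal (CD11a) from 256 and 217 CPM to 453, 553 and 466 CPM, with adjusted p of 0.00388 and 0.0153. Clec12a, an inhibitory lectin receptor of myeloid cells, was at 19.3 and 22.1 CPM at 0 h and 212, 231 and 195 CPM in late R07 (log2 3.33 ± 0.17, adjusted p = 0.00266). Cd33, a sialic acid-binding receptor, went from 161 and 147 CPM to 625, 744 and 606 CPM (log2 2.07 ± 0.17, adjusted p = 0.00388). Itgb2, Itgax, Itgal, Clec12a and Cd33 thus held similar levels at the 3 late times. Cd14, the co-receptor for bacterial lipopolysaccharide, was at 0.456 and 0.475 CPM at 0 h and at 13.2, 6.91 and 2.08 CPM, highest at 36 h (log2 3.95 ± 0.80, adjusted p = 0.0244). Tlr13 and Clec4a2 started near 0 (0.0253 and 0.0620 and 0.101 and 0.393 CPM) and reached 1.86, 4.18 and 0.817 and 8.19, 18.5 and 3.38 CPM, with log2 changes of 5.56 ± 0.97 and 5.26 ± 0.93. Ccr2, the receptor that takes monocytes out of the marrow, was abundant before treatment at 758 and 815 CPM and rose to 1317, 1885 and 1658 CPM (log2 1.02 ± 0.20, adjusted p = 0.0221). When the R07 library at 72 h was left out, 4 members were called, Itgax, Itgb2, Cd33 and Clec12a.

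Receptors for growth factors and cytokines were called higher in 7 of 23 tested members and lower in none (median log2 change 1.00). Over all genes tested the shares were 10.1% and 6.53%. Csf1r, the receptor for macrophage colony-stimulating factor, was at 0.684 and 0.909 CPM at 0 h, 2.06 CPM at 12 h and 23.6, 17.5 and 5.18 CPM in late R07 (log2 4.24 ± 0.69, adjusted p = 0.0153). Csf3r, the receptor for granulocyte colony-stimulating factor, was at 33.2 and 32.5 CPM and then at 129, 98.4 and 75.05 CPM (log2 1.59 ± 0.24, adjusted p = 0.0124). For both, the late values were highest at 36 h and lowest at 120 h. Flt3, a receptor kinase of early progenitors and dendritic precursors, had the other order, with 338 and 296 CPM at 0 h and 449, 918 and 938 CPM in late R07 (log2 1.26 ± 0.33, adjusted p = 0.0455). Il7r and Il3ra, receptor chains for interleukin 7 and interleukin 3, rose by 3.65 and 1.47 on the log2 scale. No member was called without the R07 library at 72 h.

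Interferon-stimulated genes had the highest share of calls: 18 of the 26 tested members (29 listed) were called higher and none lower, with a median log2 change of 2.03. The shares over all genes tested were 10.1% and 6.53%. As background, type I interferons act through a transcription factor complex with IRF9 that binds interferon-stimulated response elements (ISRE) in promoters, and the induced genes sense or degrade viral RNA. Of the called members with a promoter entry and 1 CPM or more in either group, the promoters of the 6 with the largest changes are shown, because the element can be looked for in them. The ISRE core searched was GAAA, any 2 bases and GAAA again, on both strands (TTTC, any 2 bases and TTTC where it lies on the opposite strand), in the 250 bases before each RefSeq gene start on GRCm38.p6. It was found in 5 of the 13 called members with a promoter entry (Isg15, Ifit1, Rsad2, Oas1a and Oas3), in 6 of the 7 uncalled members with an entry (Ifit3, Stat2, Bst2, Cxcl10, Gbp2 and Gbp3), and in 978 of 32851 promoters in all (2.98%). The share with a match was lower among called than among uncalled members, which describes these windows and was not tested. Below, capitals mark the core, and each sequence runs 5′ to 3′ on the gene's own strand and ends at the base before the start; the gene strand is minus for Rsad2, Oas3 and Irf7 and plus for Oasl2, Oasl1 and Ifit1.
Rsad2, chr12:26456453-26456702: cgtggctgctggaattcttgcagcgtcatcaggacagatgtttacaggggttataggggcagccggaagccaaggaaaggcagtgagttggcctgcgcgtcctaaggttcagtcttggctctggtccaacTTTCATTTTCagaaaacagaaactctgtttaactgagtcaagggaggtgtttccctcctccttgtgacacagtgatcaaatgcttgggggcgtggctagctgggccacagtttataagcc
Oas3, chr5:120777660-120777909: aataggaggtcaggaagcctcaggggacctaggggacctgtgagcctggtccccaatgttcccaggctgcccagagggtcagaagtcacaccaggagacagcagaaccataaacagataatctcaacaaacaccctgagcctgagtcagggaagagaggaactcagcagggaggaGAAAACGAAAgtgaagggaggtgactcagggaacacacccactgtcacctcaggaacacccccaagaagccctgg
Oasl2, chr5:114896684-114896933: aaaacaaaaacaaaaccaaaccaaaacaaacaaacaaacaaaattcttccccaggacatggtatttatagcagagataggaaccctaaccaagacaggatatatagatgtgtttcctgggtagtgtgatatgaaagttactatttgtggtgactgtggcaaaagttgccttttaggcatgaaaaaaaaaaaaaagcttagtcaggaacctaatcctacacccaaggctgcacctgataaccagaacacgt
Irf7, chr7:141266425-141266674: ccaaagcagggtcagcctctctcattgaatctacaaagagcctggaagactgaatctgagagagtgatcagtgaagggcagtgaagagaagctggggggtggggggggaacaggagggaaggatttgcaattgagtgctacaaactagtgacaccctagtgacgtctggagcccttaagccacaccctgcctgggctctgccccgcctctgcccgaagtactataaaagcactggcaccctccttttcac
Oasl1, chr5:114922990-114923239: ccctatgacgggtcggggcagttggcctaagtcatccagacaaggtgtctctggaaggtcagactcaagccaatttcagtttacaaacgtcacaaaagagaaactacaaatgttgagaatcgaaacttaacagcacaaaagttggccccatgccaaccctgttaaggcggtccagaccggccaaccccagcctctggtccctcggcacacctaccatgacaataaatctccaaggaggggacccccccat
Ifit1, chr19:34640639-34640888: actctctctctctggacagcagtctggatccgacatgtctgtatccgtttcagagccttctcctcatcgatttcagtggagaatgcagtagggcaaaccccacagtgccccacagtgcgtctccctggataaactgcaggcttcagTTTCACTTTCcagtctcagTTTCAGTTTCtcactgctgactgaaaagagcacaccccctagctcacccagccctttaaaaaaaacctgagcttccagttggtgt
The core begins 120 bases before the start in Rsad2, 75 before it in Oas3, and 104 and 85 before it in Ifit1. The windows of Oasl2, Irf7 and Oasl1 hold no match to these letters.

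Rsad2 (ENSMUSG00000020641.12), viperin, an enzyme that makes a chain-terminating nucleotide, was at 0.253 and 0.558 CPM at 0 h, 1.54 CPM at 12 h and 15.5, 12.2 and 10.2 CPM in late R07, a 29.97-fold rise (log2 4.91 ± 0.43, adjusted p = 0.00410). The oligoadenylate synthetases, which activate RNase L on double-stranded RNA, rose as well. Oas3 went from 0.558 and 0.310 CPM to 6.35, 3.37 and 3.62 CPM (log2 3.34 ± 0.47, adjusted p = 0.0107). Oas2 went from 0.127 and 0.103 CPM to 1.19, 2.39 and 2.52 CPM (log2 4.10 ± 0.55, adjusted p = 0.00976), and its 12 h library, at 0.130 CPM, lay next to the 0 h values. Oasl1, Oasl2 and Oas1a rose by 2.93, 3.13 and 0.98 on the log2 scale. Ifit1, whose product binds uncapped RNA, was at 0.177 and 0.372 CPM at 0 h and 1.47, 1.49 and 1.61 CPM in late R07 (log2 2.42 ± 0.43, adjusted p = 0.0182).

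Sensors and regulators of the pathway were among the calls. Ddx58 (RIG-I), a sensor of viral RNA, was at 4.97 and 6.08 CPM at 0 h, 12.00 CPM at 12 h and 19.7, 24.8 and 20.1 CPM in late R07 (log2 1.94 ± 0.22, adjusted p = 0.00800). Ifih1 (MDA5), its relative, went from 9.98 and 11.1 CPM to 21.4, 44.4 and 23.2 CPM (log2 1.47 ± 0.35, adjusted p = 0.0343). Irf7, the factor that amplifies interferon production, was at 0.481 and 0.496 CPM, then at 2.01 CPM at 12 h and 4.55, 3.95 and 4.18 CPM in the late libraries (log2 3.08 ± 0.31, adjusted p = 0.00569). The 3 late values of Irf7 lay within a narrow range. Irf9, a DNA-binding part of that complex, went from 8.41 and 8.99 CPM to 21.9, 24.9 and 29.6 CPM (log2 1.53 ± 0.21, adjusted p = 0.0102). Its partner Stat2 did not pass the test, at 17.6 and 15.7 CPM at 0 h and 37.5, 31.2 and 21.8 CPM in late R07 (adjusted p = 0.0626), though the groups did not overlap. Over the 26 members the median difference from the 0 h mean was 0.86 on the log2 scale at 12 h and 1.93, 2.01 and 1.88 at 36, 72 and 120 h. Without the R07 library at 72 h 2 of the 18, Rsad2 and Irf7, were called.

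**Figure D2:**
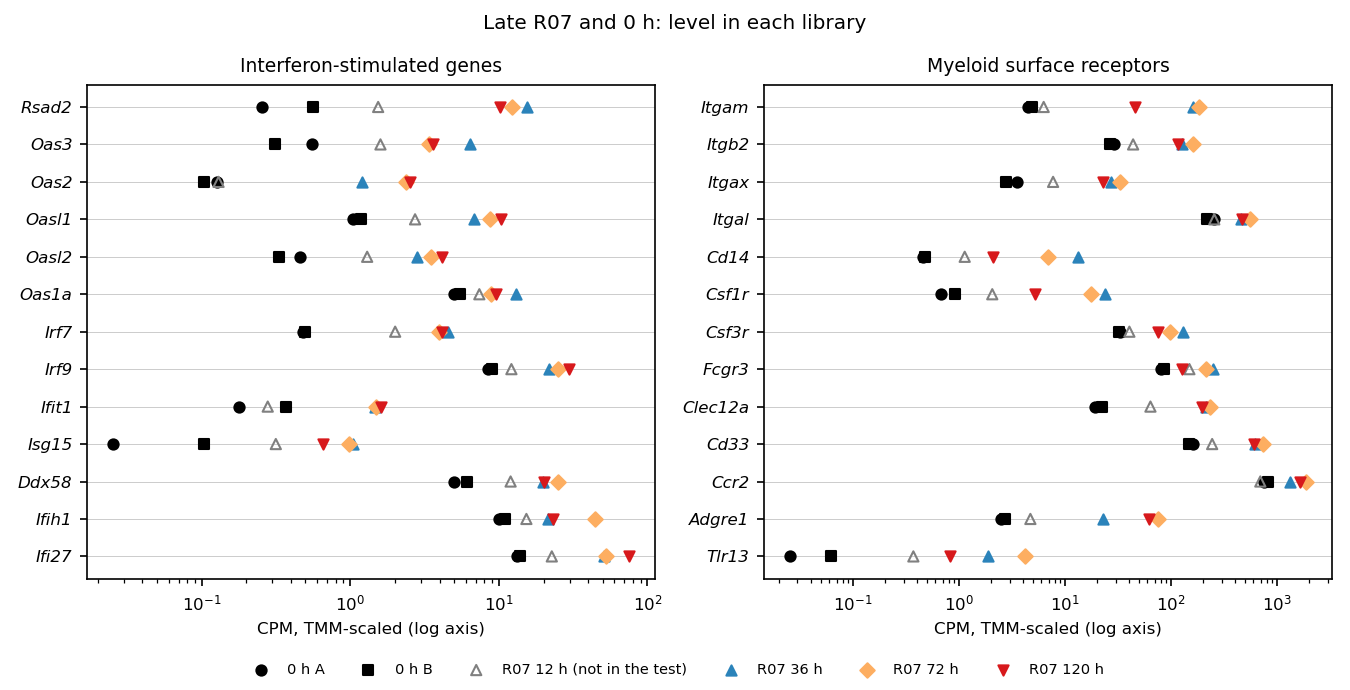
Levels (CPM, log axis) of interferon-stimulated genes and of myeloid surface receptors, 1 point per library, with 0 h in black, late R07 in colour and R07 at 12 h as an open triangle outside the test. All genes shown were called higher, and the 12 h point of Irf7, at 2.01 CPM, lies between 0 h and the late points.

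Inflammatory cytokines, chemokines and NF-kB genes were called higher in 7 of 23 tested members and lower in none, against 10.1% and 6.53% of all genes tested. Ccl4, a chemokine encoded next to Ccl3, went from 0.253 and 0.186 CPM to 1.93, 3.63 and 2.50 CPM (log2 3.58 ± 0.46, adjusted p = 0.00889). Tnfaip3, the ubiquitin editor A20 that restrains NF-kB, was at 3.22 and 3.24 CPM and then at 9.93, 10.8 and 7.35 CPM (log2 1.51 ± 0.26, adjusted p = 0.0177). Icam1, an adhesion ligand for the CD18 integrins, went from 6.56 and 6.28 CPM to 19.8, 21.9 and 13.1 CPM (log2 1.48 ± 0.27, adjusted p = 0.0187). These changes were smaller than those of the chemokines. Immediate early genes were called higher in 4 of 20 tested members, among them Fos at 3.07 and 3.08 CPM and then 8.97, 15.8 and 18.1 CPM and Fosl2 at 13.6 and 12.6 CPM and then 35.96, 79.4 and 39.99 CPM.

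Lysosomal genes were called higher in 7 of 20 tested members and lower in none (median log2 change 0.63), against 10.1% and 6.53% of all genes tested. Grn, progranulin, a lysosomal growth factor precursor, was at 59.6 and 51.7 CPM at 0 h and 211, 259 and 179 CPM in late R07 (log2 1.94 ± 0.20, adjusted p = 0.00642). Ctsd, the protease cathepsin D, went from 411 and 364 CPM to 835, 899 and 690.3 CPM (log2 1.04 ± 0.17, adjusted p = 0.0160), and Psap, a precursor of sphingolipid activators, from 327 and 297 CPM to 742, 578 and 479.7 CPM (adjusted p = 0.0310). Of the phagocyte oxidase and its proton channel, 2 of 8 tested genes were called higher. Cyba, the p22phox subunit, rose from 60.1 and 57.7 CPM to 90.9, 139.6 and 156 CPM, whereas its catalytic partner Cybb stayed at low levels, with 0.304 and 0.455 CPM at 0 h and 1.13, 2.45 and 0.654 CPM in late R07 (adjusted p = 0.0847).

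Granule genes, which mark the steps of neutrophil maturation, moved unevenly. Of the primary granule genes, made at the promyelocyte step, 3 of 13 tested were called higher, against 10.1% of all genes tested. Mpo, myeloperoxidase, was at 3992 and 3764 CPM at 0 h and 9538, 6567 and 4363 CPM in late R07 (log2 0.79 ± 0.31, adjusted p = 0.124) and did not pass the test. Elane, neutrophil elastase, was at 2.74 and 2.91 CPM and then at 24.7, 4.14 and 1.84 CPM, so that the groups overlapped (adjusted p = 0.246). Secondary and tertiary granule genes were called higher in 5 of 15 tested members. Mmp8, neutrophil collagenase, went from 5.73 and 5.62 CPM to 54.7, 132 and 35.3 CPM (log2 3.68 ± 0.59, adjusted p = 0.0146), and Hp, haptoglobin, from 10.4 and 10.2 CPM to 241, 85.5 and 20.5 CPM (log2 3.45 ± 0.94, adjusted p = 0.0488), with its lowest late value at 120 h. Of the same list, Ltb4r1, the leukotriene B4 receptor, was at 1.44 and 1.76 CPM at 0 h and 11.8, 22.2 and 12.6 CPM in late R07 (log2 3.25 ± 0.38, adjusted p = 0.00800). Ltf, lactoferrin, had 0.760 and 0.723 CPM at 0 h and 0.566, 0.715 and 0.560 CPM in late R07 (adjusted p = 0.588), and Ngp had 0.507 and 0.889 and 0.712, 1.15 and 0.584 CPM. S100a8 and S100a9, the calprotectin subunits, were at 0.817, 0.828 and 0.584 and 0.419, 0.621 and 1.00 CPM in late R07, against 0.608 and 1.14 and 0.862 and 1.34 CPM at 0 h, and neither passed the test. Camp stayed under the filter on low counts and Ly6g had no count in any of the 5 libraries.

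Genes of mature neutrophils and of monocytes and macrophages were each called higher in 9 of 20 tested members and lower in none, with median log2 changes of 1.47 and 1.09. The shares over all genes tested were 10.1% and 6.53%. Ptafr, a member of the neutrophil list and the receptor for platelet-activating factor, went from 22.05 and 21.5 CPM to 113, 167 and 125 CPM (log2 2.61 ± 0.21, adjusted p = 0.00388). Of the monocyte and macrophage list, Mmp12, Adgre1, Cd14 and Csf1r were among the calls. Among myeloid transcription factors, 5 of 29 tested members were called higher and none lower. Cebpa, which drives the granulocyte-monocyte fate, was at 142 and 140.5 CPM at 0 h, 111 CPM at 12 h and 266, 315 and 286 CPM in late R07 (log2 1.01 ± 0.15, adjusted p = 0.0119). Klf6, Maf, Runx1 and Irf5 rose by 1.86, 4.09, 1.25 and 1.19 on the log2 scale. Cebpe, the factor of secondary granule genes, was at 8.44 and 9.61 CPM and then 27.3, 24.4 and 12.4 CPM and lay just over the threshold (adjusted p = 0.0541); Gfi1 (179 and 182 and 222, 358 and 458 CPM), Spi1 (83.7 and 81.02 and 176, 132 and 93.7 CPM) and Irf8 (19.9 and 18.04 and 40.7, 20.3 and 13.4 CPM) were not called.

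Progenitor genes were called higher in 4 of 24 tested members and lower in 1, with a median log2 change of 0.35; the shares over all genes were 10.1% and 6.53%. Kit, the receptor for stem cell factor, was at 799 and 733 CPM at 0 h and 901, 1063 and 1002 CPM in late R07 (log2 0.35 ± 0.16, adjusted p = 0.164). Cd34, a sialomucin of progenitors, was at 2725 and 2843 CPM and then at 2866, 2203 and 2135 CPM (log2 -0.24 ± 0.18, adjusted p = 0.389). Myb, the factor that sustains progenitor division, was at 977 and 989 CPM and then at 938, 1199 and 1159 CPM (log2 0.14 ± 0.17, adjusted p = 0.602). None of these differences passed the test. Meis1, the DNA-binding partner of HoxA9, was at 27.98 and 27.1 CPM at 0 h and 37.2, 53.4 and 72.1 CPM in late R07 (log2 0.96 ± 0.29, adjusted p = 0.0616), higher in each late library but not called. Trib2, a pseudokinase that destabilises CEBPA, was called higher, from 21.9 and 21.8 CPM to 55.9, 75.01 and 65.3 CPM (log2 1.56 ± 0.18, adjusted p = 0.00800), and so was Cd93, from 207 and 192 CPM to 493, 698 and 385 CPM. Hoxa9 and Esr1, whose counts may hold both the native transcript and the fusion, were at 151 and 132 and 46.4 and 43.1 CPM at 0 h and 66.2, 202 and 175 and 38.8, 73.9 and 53.99 CPM in late R07, with overlapping groups in both.

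Genes of other blood lineages were also among the calls, at levels that differed widely between the sets. Over all genes tested 10.1% were called higher and 6.53% lower. The summed level of the eosinophil markers was 34.1 to 35.7 CPM at 0 h and 128 to 261 CPM in late R07, with 2 of 4 tested markers called higher and Ear1 at 0. Siglecf, an eosinophil and macrophage lectin, rose from 25.4 and 23.9 CPM to 189, 158 and 109 CPM (log2 2.60 ± 0.25, adjusted p = 0.00569). Mast cell and basophil markers summed to 243 to 288 CPM at 0 h and 930 to 1214 CPM in late R07, most of it Cpa3 (173 and 208 CPM and then 1053, 933 and 907 CPM, log2 2.32 ± 0.17, adjusted p = 0.00388), with Fcer1a and Tpsab1 at 0 and Mcpt8 called lower. Megakaryocyte markers summed to 15.0 to 15.4 CPM and then 66.8 to 127 CPM, with 3 of 5 tested called higher. Itga2b, the platelet integrin chain CD41, rose from 7.60 and 7.81 CPM to 41.03, 107 and 58.6 CPM (log2 3.14 ± 0.43, adjusted p = 0.0102). Monocyte markers summed to 763 to 821 CPM and then 1381 to 1989 CPM, nearly all of it Ccr2, with 4 of 6 tested called higher. Neutrophil markers summed to 17.1 to 18.3 CPM and then 26.3 to 106 CPM, with none of 4 tested called. Lcn2 alone made up 30.7 to 97.3% of this sum, and Ly6g was at 0. The remaining sets were dendritic (296 to 339 and 450 to 940 CPM, nearly all of it Flt3, 2 of 3 tested called higher, with Xcr1 at 0), stroma (159 to 169 and 246 to 405 CPM, mostly Pecam1, 2 of 3, with Col3a1 at 0) and B cell (172 to 181 and 194 to 225 CPM, mostly Ebf1, 1 of 6). T and NK cell markers were near 0 at 0 h, up to 0.0207 CPM, and summed to 0.864 to 2.12 CPM in late R07. Nearly all of this sum was Klrb1c, the only tested marker of the set and called higher, with Cd3e, Cd8a and Ncr1 at 0. Erythroid markers summed to 0.558 to 0.744 and 1.26 to 1.42 CPM, with Alas2 at 0. The part of other cells in the results was not tested.

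Genes of ribosome biogenesis and RNA polymerase I were called lower in 15 of 30 tested members and higher in none (median log2 change -0.64), against 6.53% of all genes tested. Ncl, nucleolin, was at 2408 and 2663 CPM at 0 h, 1760.2 CPM at 12 h and 1059, 1229 and 1429 CPM in late R07 (log2 -1.06 ± 0.18, adjusted p = 0.0176). Npm1, nucleophosmin, went from 2583 and 3127 CPM to 1109.6, 1346 and 1775 CPM (log2 -1.04 ± 0.23, adjusted p = 0.0298), and Utp20, a subunit of the small-subunit processome, from 195 and 185 CPM to 75.7, 61.3 and 74.6 CPM (log2 -1.45 ± 0.15, adjusted p = 0.00665). Polr1b, the second-largest subunit of polymerase I, went from 148 and 136 CPM to 62.8, 76.03 and 96.4 CPM (log2 -0.88 ± 0.20, adjusted p = 0.0321). In Ncl, Npm1 and Polr1b the lowest value was at 36 h and the 12 h library already lay under both 0 h libraries. Myc, the factor that drives this programme, was at 489 and 489.7 CPM at 0 h and 464, 482 and 559 CPM in late R07, with 344 CPM at 12 h (adjusted p = 0.962). Of the 15 calls Utp20 was left without the R07 library at 72 h.

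Nucleotide synthesis genes were also called lower, beside 6.53% lower and 10.1% higher over all genes tested. Of 17 tested purine genes 8 were called lower and 2 higher, and of 29 tested pyrimidine genes 7 were called lower and 2 higher. Gart, a multifunctional enzyme of purine ring synthesis, was at 428 and 401 CPM at 0 h and 164, 191 and 236 CPM in late R07 (log2 -1.09 ± 0.19, adjusted p = 0.0170), and Ppat, the first enzyme of the pathway, at 274 and 301 and 175, 138 and 147 CPM (log2 -0.93 ± 0.15, adjusted p = 0.0158). Gda, guanine deaminase of the salvage and breakdown arm, went the other way, from 58.4 and 75.5 CPM to 382, 574 and 224 CPM (log2 2.53 ± 0.40, adjusted p = 0.0139). Cad, the enzyme of the first pyrimidine steps, fell from 510.2 and 382 CPM to 284, 142 and 154 CPM (log2 -1.23 ± 0.31, adjusted p = 0.0401). Dhodh, the mitochondrial enzyme of the next step, was at 33.6 and 33.1 CPM at 0 h and 22.4, 19.9 and 24.9 CPM in late R07 (log2 -0.60 ± 0.17, adjusted p = 0.0585), lower in each late library but not called. Umps, which finishes the pathway to UMP, was likewise not called, at 209 and 211 and 165, 143 and 162 CPM (adjusted p = 0.0678).

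Replication genes were called lower in 9 of 34 tested members and higher in none (median log2 change -0.55), against 6.53% and 10.1% of all genes tested. Pola1, the polymerase that primes DNA synthesis, was at 151 and 164 CPM at 0 h and 80.05, 65.8 and 70.9 CPM in late R07 (log2 -1.15 ± 0.14, adjusted p = 0.00868). Mcm4 and Mcm2, subunits of the replicative helicase, went from 397 and 416 and 409.8 and 368 CPM to 299, 186 and 191 and 274, 204 and 257 CPM, with adjusted p of 0.0420 and 0.0391. Genes of G2 and mitosis were called in neither direction (0 of 30 tested, with 2 at an unadjusted p under 0.05). Their median difference from 0 h changed over time, at 0.09, -0.19 and -0.56 on the log2 scale at 36, 72 and 120 h. Over all genes tested it was 0.05, 0.05 and 0.03. Each time has 1 library, so this order was not tested. Mki67, a marker of cycling cells, was at 574 and 569 CPM and then 738, 559 and 382 CPM, with overlapping groups (adjusted p = 0.896). The difference between both lists was not tested. Cdkn1a, the inhibitor p21, was at 26.9 and 25.4 CPM and 27.4, 16.2 and 20.00 CPM and not called, while Cdkn1b and Cdkn2d rose by 0.86 and 0.73 on the log2 scale.

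Chaperones and energy metabolism also had more calls below 0 h than above, while over all genes tested 6.53% were called lower and 10.1% higher. Of 11 tested heat shock and proteostasis genes 6 were called lower, among them Hspd1, the mitochondrial chaperonin, from 1253 and 1465 CPM to 617, 625 and 803 CPM (log2 -1.02 ± 0.18, adjusted p = 0.0187), and Hspa8, the constitutive HSP70, from 2963 and 3099 CPM to 1768, 1396 and 1558 CPM (log2 -0.97 ± 0.16, adjusted p = 0.0166). Nuclear genes of the respiratory chain were called lower in 9 of 26 and higher in none; Cycs, cytochrome c, went from 105 and 131 CPM to 77.7, 58.4 and 74.3 CPM (adjusted p = 0.0335). None of the 10 tested mitochondrially encoded genes was called (1 at an unadjusted p under 0.05). Of 23 tested glycolysis genes 5 were called lower, with Eno1, enolase, at 1228 and 1143 CPM and then 624, 608 and 687 CPM and Ldha, lactate dehydrogenase, at 828 and 789 CPM and then 559, 362 and 432 CPM. Without the R07 library at 72 h Hsph1 was the single member of these lists, of the nucleotide lists and of the replication list to be called.

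**Figure D3:**
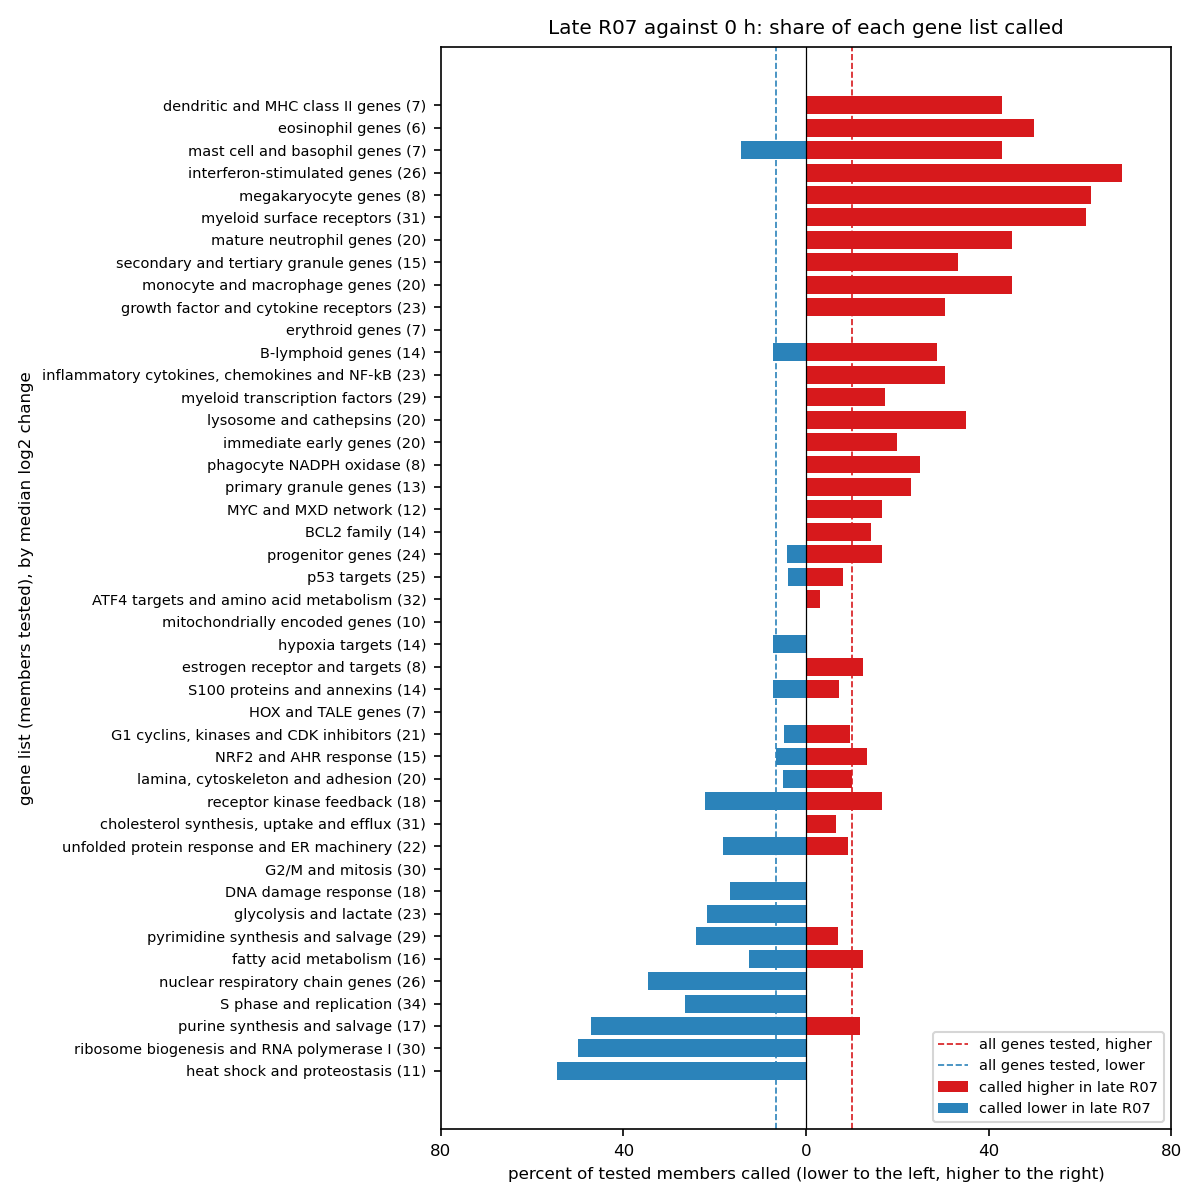
Percent of the tested members of each gene list called higher (red, to the right) or lower (blue, to the left) in late R07 against 0 h, for lists with at least 6 tested members, in order of their median log2 change. Dashed lines give the share over all genes tested, 10.1% higher and 6.53% lower; interferon-stimulated genes have 18 of 26 members to the right and ribosome biogenesis 15 of 30 to the left.

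The 3 late libraries were not alike, and the test counts their differences as spread. The median absolute difference in log2 CPM over the tested genes was 0.32 between 36 and 72 h, 0.44 between 36 and 120 h and 0.24 between 72 and 120 h, against 0.16 between both 0 h libraries and 0.43, 0.47 and 0.46 from the 0 h mean to 36, 72 and 120 h. Each time has 1 library, so differences between the times are given as values with no test. Genes called higher lay farthest from 0 h at 36 h in 468 cases, at 72 h in 602 and at 120 h in 298. Genes called lower did so in 233, 416 and 239 cases.

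Most tested ATF4 targets were under 0 h at the earlier R07 times and over it at 120 h. ATF4 is the transcription factor of the amino acid and integrated stress response, and its targets make amino acids, transport them or feed back on the response. Of 32 tested members 1 was called (Pck2, higher, log2 0.78 ± 0.19, adjusted p = 0.0352). Of the 32, 27 lay under both 0 h libraries at 12 h and 28 at 36 h, whereas 23 lay over both at 72 h and 28 at 120 h. The share of all genes tested that lay so at each single time was not counted. In 3 members, Pck2 among them, all 3 late libraries were over both 0 h libraries, and in 1 all were under. Over all genes tested these shares were 28.9% and 24.3%, and 10.1% were called higher and 6.53% lower. The median difference from 0 h over the list was -0.74 at 12 h, -0.96 at 36 h, 0.35 at 72 h and 0.92 at 120 h on the log2 scale, while that over all genes stayed between 0.02 and 0.05. Trib3, a pseudokinase that dampens the response, was at 37.9 and 34.6 CPM at 0 h, 4.18 CPM at 12 h and 2.01, 100.4 and 223 CPM at 36, 72 and 120 h. Atf4 itself was at 339.6 and 351 CPM at 0 h, 88.8 CPM at 12 h and 106, 428 and 646 CPM at the late times. Asns, asparagine synthetase, was at 92.4 and 97.1 CPM, then 50.98 and then 20.98, 143 and 209 CPM. All of these were under 0 h at 12 and 36 h and over it at 72 and 120 h. Chac1 (a glutathione-degrading enzyme), Slc1a4 (a neutral amino acid transporter), Nupr1 (a stress-response chromatin protein) and Aldh1l2 (a mitochondrial folate enzyme) had the same order, with 0.210, 9.94 and 16.6 CPM, 7.15, 58.4 and 96.2 CPM, 0.251, 8.32 and 19.4 CPM and 0.210, 11.7 and 26.4 CPM at the late times against 2.26 and 2.29, 27.6 and 27.5, 0.634 and 0.682 and 1.72 and 1.55 CPM at 0 h. Over all genes with a mean of 3 or more on the log2 CPM scale, the widest ranges with values increasing from 36 to 120 h were those of Trib3, Mmp12, Cox6a2 (a muscle-type cytochrome oxidase subunit, 1.84, 39.6 and 101 CPM), Mamdc2 (2.64, 12.5 and 69.2 CPM), Rin1 (a RAB5 exchange factor, 1.24, 15.8 and 28.5 CPM) and Cyb5r1 (a cytochrome b5 reductase, 20.3, 169 and 333 CPM).

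Most tested cholesterol genes had the opposite order in time. Of 31 tested members 2 were called higher, Abca1, which exports cholesterol (14.6 and 13.8 CPM and then 57.9, 52.03 and 29.9 CPM, adjusted p = 0.0178), and Mylip, a ubiquitin ligase of sterol metabolism (10.9 and 10.5 CPM and then 19.4, 27.5 and 17.1 CPM, adjusted p = 0.0406). Of the 31, 27 lay over both 0 h libraries at 36 h, whereas 24 lay under both at 72 h and 23 at 120 h. Here too the share of all genes tested at each single time was not counted. In 7 members, Abca1 and Mylip among them, all 3 late libraries were over both 0 h libraries, and in 3 all were under. Over all genes tested these shares were 28.9% and 24.3%, and 10.1% were called higher and 6.53% lower. The median difference over the list was 0.25 at 12 h, 0.40 at 36 h, -0.50 at 72 h and -0.83 at 120 h. Idi1, an isomerase of the isoprenoid steps, was at 32.4 and 36.00 CPM at 0 h, 50.7 CPM at 12 h and 42.7, 8.92 and 6.44 CPM at the late times. Acat2, which forms acetoacetyl-CoA, was at 44.6 and 48.9 CPM, then 72.4 and 67.5, 15.4 and 10.6 CPM, and Cyp51, a sterol demethylase, at 136 and 152 CPM, then 172 and 143, 56.8 and 54.1 CPM. These genes lay near or over 0 h up to 36 h and under it later. Of genes at that level with a falling order over the late times, the widest ranges were those of Gas7, Hp, Hdc (histidine decarboxylase, 136, 13.1 and 4.81 CPM), Ms4a3 (a granulocyte-monocyte progenitor gene, 114, 35.8 and 5.72 CPM), Tuba1a (an alpha-tubulin, 77.5, 10.4 and 5.04 CPM) and Idh1 (isocitrate dehydrogenase, 404, 134 and 43.3 CPM). Hdc, Ms4a3, Tuba1a and Idh1 were not called. Without the R07 library at 36 h Tuba1a was called lower by 1.45 on the log2 scale (adjusted p = 0.000781).

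**Figure D4:**
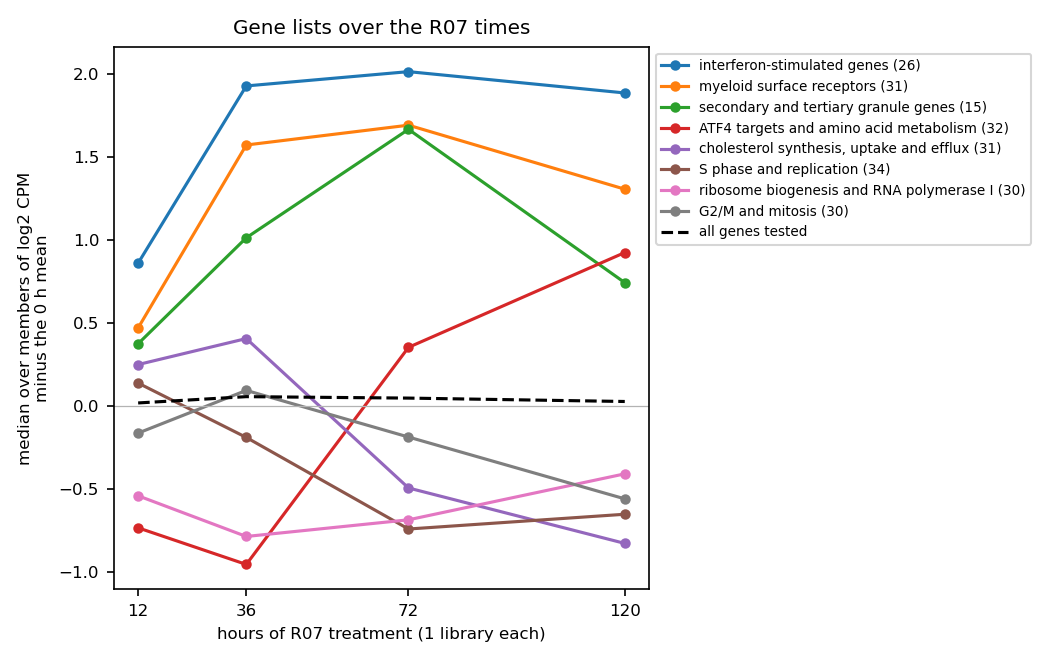
Median over the tested members of 8 gene lists of log2 CPM minus the 0 h mean (vertical axis) against hours of R07 (horizontal axis), with 1 library per time and all genes tested as the dashed line. Interferon-stimulated genes stay between 1.88 and 2.01 at the late times, while ATF4 targets go from -0.96 at 36 h to 0.92 at 120 h and cholesterol genes from 0.40 to -0.83.

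Most called genes lay on the same side of the 0 h mean at 12 h as in the late libraries, and at the median by less. Over all genes tested the median log2 difference at 12 h was 0.02. Of the 1368 genes called higher 1148 were also over the 0 h mean at 12 h, with a median log2 difference of 0.48, against 1.45, 1.61 and 1.39 at 36, 72 and 120 h. Of the 888 genes called lower 751 were under it at 12 h, with medians of -0.25 at 12 h and -0.70, -0.85 and -0.72 later. The late values chose these genes, and all the differences share the 0 h libraries, so these numbers describe the genes and test nothing. Adding the 12 h library to the R07 group left no gene called by edgeR (2868 genes at an unadjusted p under 0.05).

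Withdrawal libraries of the same hours show where R07-treated cells differed from cells taken out of estradiol. Each R07 time has 1 library. Since the labels do not tell whether estradiol was present with R07, effects of R07 and of estradiol cannot be told apart here. In a fit with hours as a factor over the 3 late R07 libraries and the 6 withdrawal libraries, 3103 of 14989 genes tested were called (20.7%), 1800 higher (12.0%) and 1303 lower (8.69%) in R07. Leaving out the R07 library at 72 h gave 1239 calls, the one at 36 h 7023, and 1 withdrawal library from 1482 (72 h, B) to 2109 (36 h, B). Progenitor genes were higher than in withdrawal in 18 of 24 tested members and lower in 1. Flt3 was at 449, 918 and 938 CPM with R07 and at 4.18 and 4.16, 6.62 and 6.40, and 9.86 and 5.70 CPM in withdrawal at 36, 72 and 120 h (log2 6.93 ± 0.21, adjusted p = 6.92e-05). Cd34 was at 2866, 2203 and 2135 CPM with R07 and at 375 and 401, 240.03 and 249.9, and 42.96 and 43.3 CPM in withdrawal (log2 4.03 ± 0.51, adjusted p = 0.00366). Kit was at 901, 1063 and 1002 CPM with R07 and at 383 and 404, 259 and 287, and 31.2 and 36.4 CPM in withdrawal (log2 2.91 ± 0.67, adjusted p = 0.0249), and Meis1 was higher by 3.09 (adjusted p = 8.50e-04). Myb differed less evenly, with 852 and 803, 383 and 432, and 26.7 and 33.3 CPM in withdrawal against 938, 1199 and 1159 CPM with R07 (adjusted p = 0.0851), and was not called.

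Most tested members of the maturation lists were not called against withdrawal, and the calls differed in direction between lists. Secondary and tertiary granule genes were lower than in withdrawal in 7 of 15 tested members and higher in none. Myeloid surface receptors were lower in 6 of 31 and higher in 1, and mature neutrophil genes lower in 4 of 20 and higher in none. Monocyte and macrophage genes were higher in 3 of 20 and lower in 1. Over all genes tested in this fit 12.0% were higher and 8.69% lower. Ltf was at 0.945 and 1.09, 365 and 172, and 5583 and 4175 CPM in withdrawal against 0.566, 0.715 and 0.560 CPM with R07 (adjusted p = 0.189), with similar levels at 36 h and far higher ones in withdrawal at 72 and 120 h. Ly6g, without a count in R07, reached 25.3 and 18.98 CPM in withdrawal at 120 h. Itgam, called higher against 0 h, was at 125 and 110.2, 1524 and 1166, and 2635 and 2114 CPM in withdrawal and 159.7, 185 and 46.2 CPM with R07; the values at 36 h were close and those at 120 h far apart (log2 -2.06 ± 1.17, adjusted p = 0.242). Cebpe was lower with R07 at each of the 3 times, with 169 and 162, 182 and 169, and 112 and 95.3 CPM in withdrawal (log2 -2.84 ± 0.15, adjusted p = 3.37e-04). Ccr2 was higher with R07, with 16.8 and 15.8, 74.7 and 71.5, and 569.6 and 467 CPM in withdrawal (log2 4.69 ± 0.79, adjusted p = 0.00866). Tgm2, the gene with the largest rise against 0 h in the ranked set, was at 407 and 470.2, 396 and 383, and 680.3 and 607 CPM in withdrawal and so lower with R07 (log2 -1.71 ± 0.31, adjusted p = 0.0117).

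Of the interferon-stimulated genes, compared with withdrawal by a term that averages over the hours, 1 of 26 (Ifi27, higher, log2 1.72 ± 0.23, adjusted p = 0.00450) was called. Rsad2 was at 15.5, 12.2 and 10.2 CPM with R07 and at 0.418 and 0.364, 2.94 and 2.64, and 645 and 571 CPM in withdrawal. Irf7 was at 4.55, 3.95 and 4.18 CPM with R07 and at 0.330 and 0.364, 5.05 and 4.10, and 1334 and 1126 CPM in withdrawal. For both genes R07 was over withdrawal at 36 h and far under it at 120 h. Ribosome biogenesis genes, lower than 0 h in 15 members, were called higher than withdrawal in 1 of 30 and lower in none. Ncl was at 1059, 1229 and 1429 CPM with R07 and at 1963 and 1847, 713 and 871, and 353 and 371 CPM in withdrawal (adjusted p = 0.288).

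**Figure D5:**
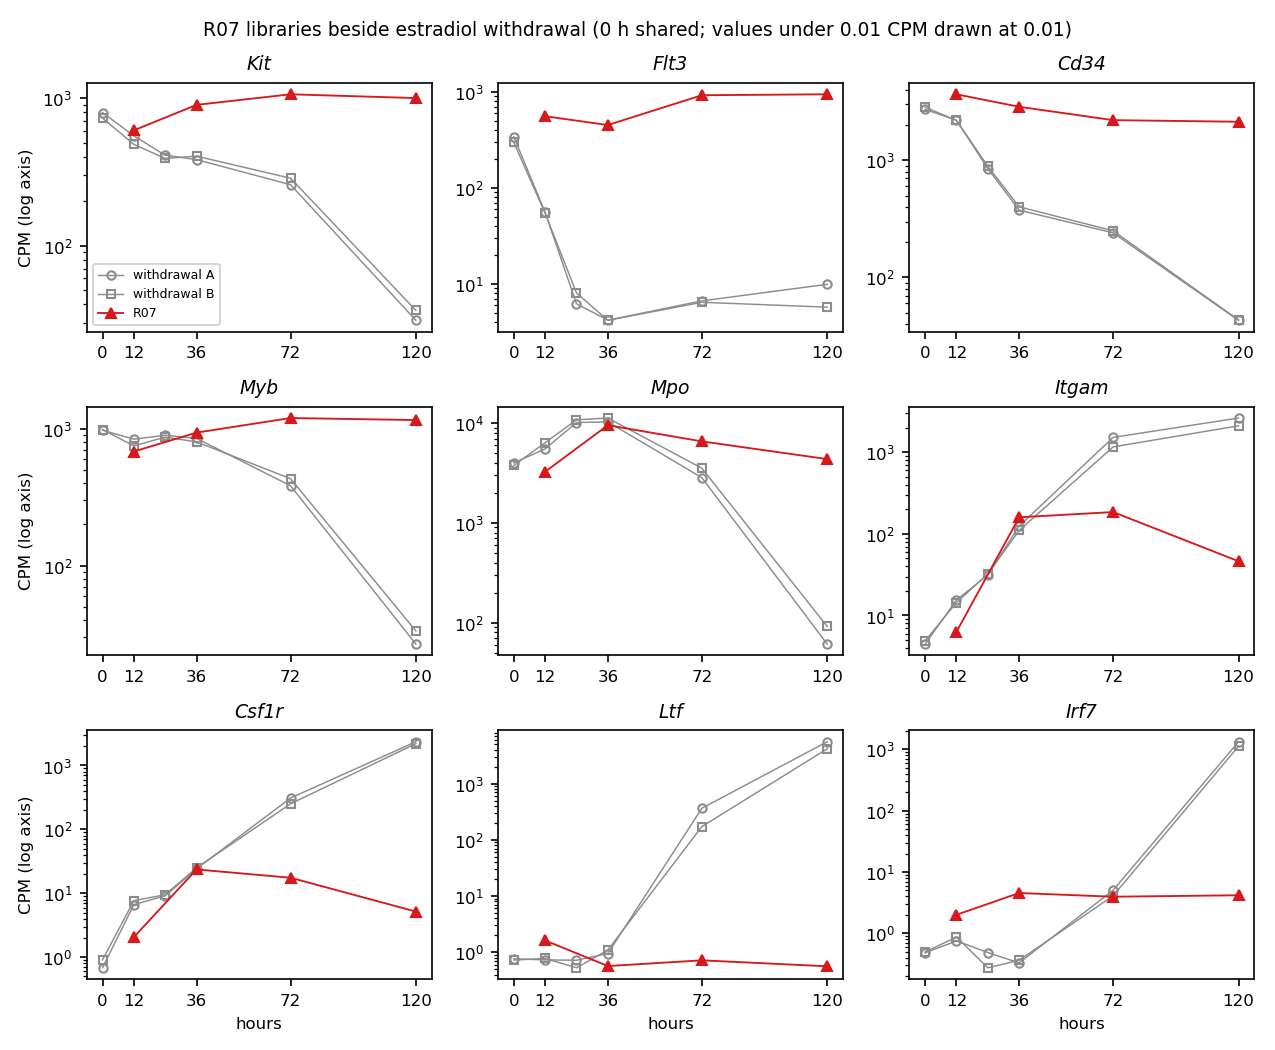
Levels (CPM, log axis) of 9 genes against hours, in the R07 libraries (red triangles, 1 per time) and the withdrawal libraries (grey, A and B), which share the 0 h point. At the late R07 times Kit, Flt3 and Myb stay near or over their 0 h level, whereas at 120 h of withdrawal Flt3 was at 9.86 and 5.70 CPM. Cd34 is under both 0 h libraries at 72 and 120 h of R07, at 2203 and 2135 CPM. At 12 h of R07 Kit (605 CPM) and Myb (683 CPM) lie under both 0 h libraries. Ltf stays under 1 CPM at the late R07 times.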

How the data were processed

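RNA was sequenced from poly(A)-selected stranded libraries as paired ends, per the labels' protocols. The deposited values are raw whole-number counts per gene and library, made by the authors with STAR 2.4.2a and Picard on mm10, per the submitters' processing notes; the counting program, strand setting and annotation release are not given in the sources used here. Without a stated strand setting, overlapping and antisense genes cannot be told apart. The 4 rows that name no gene were left out; genes held 83.9 to 85.7% of all reads in the 5 libraries tested. R07 libraries were assigned by their titles and withdrawal libraries by hour, since their letters A and B are not tied to the replicate numbers in the labels. Groups and hours come from the labels.

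After filterByExpr and TMM scaling, the quasi-likelihood F test of edgeR 4.0.16 (with limma 3.58.1, under R 4.3.3) was run with 3 residual degrees of freedom, and p-values were adjusted by Benjamini-Hochberg across every gene in the fit; differences between the R07 times enter the spread. Late R07 was also tested against withdrawal at the same hours. Alternatives were RLE scaling, no filter, DESeq2 1.42.0, all 24 libraries in the fit, hours within R07 as a covariate, the 12 h library added and each library left out. The tests were tested on simulated data, in which the R07 times did not differ. That run cannot tell how the calls behave where the R07 times differ, as they do here. Symbols and positions come from GENCODE M21 (GRCm38, the same assembly as mm10), which matched 44585 of 45319 rows, and promoter sequences from RefSeq (GRCm38.p6). Levels are CPM over all 24 libraries with TMM-scaled sizes, and log2 CPM uses a prior count of 2.

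The comparison, the gene lists and the rule for named genes were chosen with earlier results of these data known, so the lists describe and test nothing as sets. The rule names 24 anchors of the system, the 12 called genes with the highest and the 12 with the lowest log2 change that have a mean of 3 or more on the log2 CPM scale, non-overlapping groups and a name that is not a clone, pseudogene or predicted gene, up to 4 called members of each list with the largest change at 1 CPM or more in either group (where none is called, up to 2 with the largest gap), and the 6 genes with the widest steady change over the late R07 times in each direction. Chosen after their values were seen were Atf4, Asns, Chac1, Aldh1l2, Nupr1, Slc1a4, Idi1, Acat2, Cyp51, Isg15, Ifit1, Irf7, Irf9, Stat2, Oas1a, Oasl1, Ifi27, Ifih1, Ddx58, Itgb2, Itgal, Cd33, Clec12a, Ccr2, Umps, Polr1b, Ppat, Mcm2, Prtn3, Ctsg, Ngp, Cybb, S100a8 and S100a9. Some genes that the rule names are not reported here. Markers of other cell types were summed whatever their values.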

Additional observations from a re-analysis of the deposited data

How the results depend on the processing

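Against 0 h, the 2256 calls (1368 higher, 888 lower) became 3539 (2055 and 1484) with DESeq2, 6284 (3765 and 2519) with all 24 libraries fitted, 5839 (3158 and 2681) with hours within R07 as a covariate, and 0 (0 and 0) with the 12 h library added to the R07 group (2868 at an unadjusted p under 0.05). They were 2293 (1344 and 949) with RLE size factors and 3052 (1862 and 1190) without the filter. Leaving out 1 library gave 0 to 5853 calls (0 to 3197 higher, 0 to 2656 lower): 0 without either 0 h library, 63 without R07 at 72 h, 5853 without R07 at 36 h and 2919 without R07 at 120 h. Every called gene kept its direction in each of these alternatives in which it was tested. List members called, 215 in all, became 449 with all 24 libraries, 471 with the covariate, 0 with 12 h added, and 0 to 475 without 1 library. Against withdrawal at the same hours, the 3103 calls (1800 higher, 1303 lower) became 4914 (2831 and 2083) with DESeq2 and 1239 to 7023 (793 to 3731 and 446 to 3292) without 1 library. Some alternatives fit fewer libraries, add or remove spread between R07 times, or share the spread with other libraries. The counts moved both up and down, and the cause was not tested for any alternative, DESeq2 included. No paired analysis was possible because the R07 libraries carry no replicate number.

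Changes of sign were limited to named genes that were not called. With 12 h added the log2 change was -0.14 for Atf4, -0.13 for Hoxa9, 0.21 for Ltf, -0.0038 for Myb, -0.10 for Myc and 0.33 for S100a8. With hours as a covariate it was -0.017 for Asns, -0.12 for Atf4, -0.030 for Hoxa9, -0.025 for Rin1 and -0.34 for Tuba1a. For Myc it was -0.00093 with RLE, -0.0010 without the filter and -0.0014 with DESeq2. Without 1 library it ran from -0.23 to 0.88 for Asns, -0.40 to 0.63 for Atf4, -0.90 to 0.27 for Atf5, -0.016 to 0.90 for Ddit3, -0.32 to 2.69 for Hdc, -0.23 to 0.41 for Hoxa9, -0.34 to 1.22 for Idh1, -0.18 to 0.64 for Irf8, -0.29 to 0.14 for Mki67, -1.40 to 0.41 for Ms4a3, -0.091 to 0.077 for Myc, -0.17 to 0.65 for Ngp, -0.26 to 1.13 for Rin1, -0.66 to 0.25 for S100a8 and -1.45 to 1.01 for Tuba1a. At 37.0 to 47.7 M gene counts, counting error weighs most on the genes with the lowest counts; what the number of libraries limits was not tested. Counting error does not cover differences between cultures.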

Other observations

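Some groups of genes outside the main account had calls in both directions or single large changes, to be read against the 10.1% of all genes tested that were called higher and the 6.53% called lower. Of 18 tested genes of receptor kinase feedback 3 were called higher and 4 lower in late R07 than at 0 h. Dusp5, a phosphatase of ERK, was at 15.3 and 13.9 CPM at 0 h and 78.5, 58.5 and 41.9 CPM in late R07 (log2 2.00 ± 0.28, edgeR adjusted p = 0.0103), and Pim1, a cytokine-induced kinase, at 29.9 and 31.4 and 158, 69.1 and 64.6 CPM (log2 1.64 ± 0.40, adjusted p = 0.0374). Etv4, an ETS factor downstream of ERK, went down from 18.96 and 15.9 CPM to 5.11, 7.10 and 6.35 CPM (log2 -1.52 ± 0.23, adjusted p = 0.0129). Among 12 tested genes of the MYC and MXD network 2 were called higher, Mycn at 1.62 and 1.59 and 4.63, 6.72 and 9.41 CPM (log2 2.08 ± 0.38, adjusted p = 0.0184) and Mxd4, a MYC antagonist, at 94.1 and 78.7 and 264, 202 and 126 CPM (log2 1.17 ± 0.30, adjusted p = 0.0413). In the BCL2 family 2 of 14 tested genes were called higher; Bmf, a BH3-only inducer of apoptosis, was at 0.659 and 0.599 CPM at 0 h, 4.37 CPM at 12 h and 10.04, 7.34 and 4.58 CPM in late R07 (log2 3.51 ± 0.43, adjusted p = 0.00816). Of 25 tested p53 targets 2 were called higher and 1 lower. In the unfolded protein response 2 of 22 tested genes were called higher, the degradation factors Dnajb9 (17.9 and 23.4 and 35.02, 59.9 and 64.4 CPM) and Edem1 (249 and 256 and 368, 623 and 632 CPM), and 4 lower, among them the chaperone partners Creld2 (36.4 and 37.3 and 23.5, 15.6 and 16.3 CPM) and Sdf2l1 (78.2 and 78.8 and 50.4, 33.2 and 37.9 CPM). None of the genes of this paragraph was still called without the R07 library at 72 h.

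A single row of the table carries an identifier that is not from the gene annotation, and the labels do not say what it is. It was at 0.735 and 0.785 CPM at 0 h, at 0.669 CPM at 12 h and at 11.7, 7.55 and 2.47 CPM after 36, 72 and 120 h of R07 (log2 3.22 ± 0.67, adjusted p = 0.0251). In withdrawal it reached 719 and 556 CPM at 72 h and 1484 and 1283 CPM at 120 h.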
